A study of Arabidopsis thaliana with 18 samples.

Results

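LEC1, LEC2, FUS3 and ABI3, with the closest LEC1 relative L1L, the 3 VAL repressors and the factors WRI1 and AGL15, were followed as 10 named genes among the 27564 genes of a table of messenger RNA levels in Arabidopsis thaliana embryos. The members were chosen by name, as the published core of the gene network that sets up seed maturation. Earlier results of these data were known when they were chosen. All 10 were found by their locus identifiers. The study sampled the 2/4-cell, 8-cell, 16-cell, 32-cell, globular and heart stages, with 3 libraries each and 18 in all. Embryos were dissected by hand from plants grown at 22 °C in cycles of 16 h light and 8 h dark, poly(A) RNA was captured on beads, and cDNA was amplified with a kit for very small inputs. No genotype, strain, transgene or treatment is given in the labels, and neither the number of embryos per library nor the plants they came from. Values are TPM, the estimated number of a gene's transcripts in each 1000000 of the library. They are scaled for transcript length, so genes can be compared within a library. Between libraries each value is a share and depends on what else the library holds.

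LEC1 and L1L are B-type subunits of the NF-Y complex, a trimer that binds CCAAT boxes. LEC2, FUS3 and ABI3 are activators with a B3 DNA-binding domain, which reads the RY element found in many seed promoters, and together with LEC1 they are known as the LAFL factors that drive embryo identity, storage protein and oil accumulation. VAL1, VAL2 and VAL3 carry a B3 domain as well, but repress, together with histone deacetylases and Polycomb proteins, and are best known for switching the LAFL genes off in seedlings. WRI1 is an AP2-type activator of glycolysis and fatty acid synthesis genes that acts below LEC1 and LEC2, and AGL15 is a MADS-domain factor that accumulates in embryos and takes part in somatic embryogenesis with the LAFL factors.

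Over the 6 stages the activators exchanged places. LEC2 transcripts were at 79.7 ± 21.3 TPM (SD, n = 3) in 2/4-cell and 22.9 ± 1.49 TPM in heart embryos. FUS3 went the other way, from 5.53 ± 5.94 to 71.6 ± 1.76 TPM, and ABI3 from 11.5 ± 8.22 to 148 ± 21.6 TPM. LEC1 stood far above all of them, with stage means between 311 and 542 TPM, and L1L was transient, with its highest mean of 66.0 ± 30.1 TPM in 32-cell embryos. In bulk samples such as these, fewer cells of a type and less RNA per cell cannot be told apart. Of the 10 members, 9 varied over the 6 stages in limma's F test (adjusted p under 0.05), where 49.1% of the 18338 tested genes did. LEC1 was the exception. All p-values measure the spread between the 3 libraries of a stage, which may be technical, since nothing in the labels says how they were taken.

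**Figure D1:**
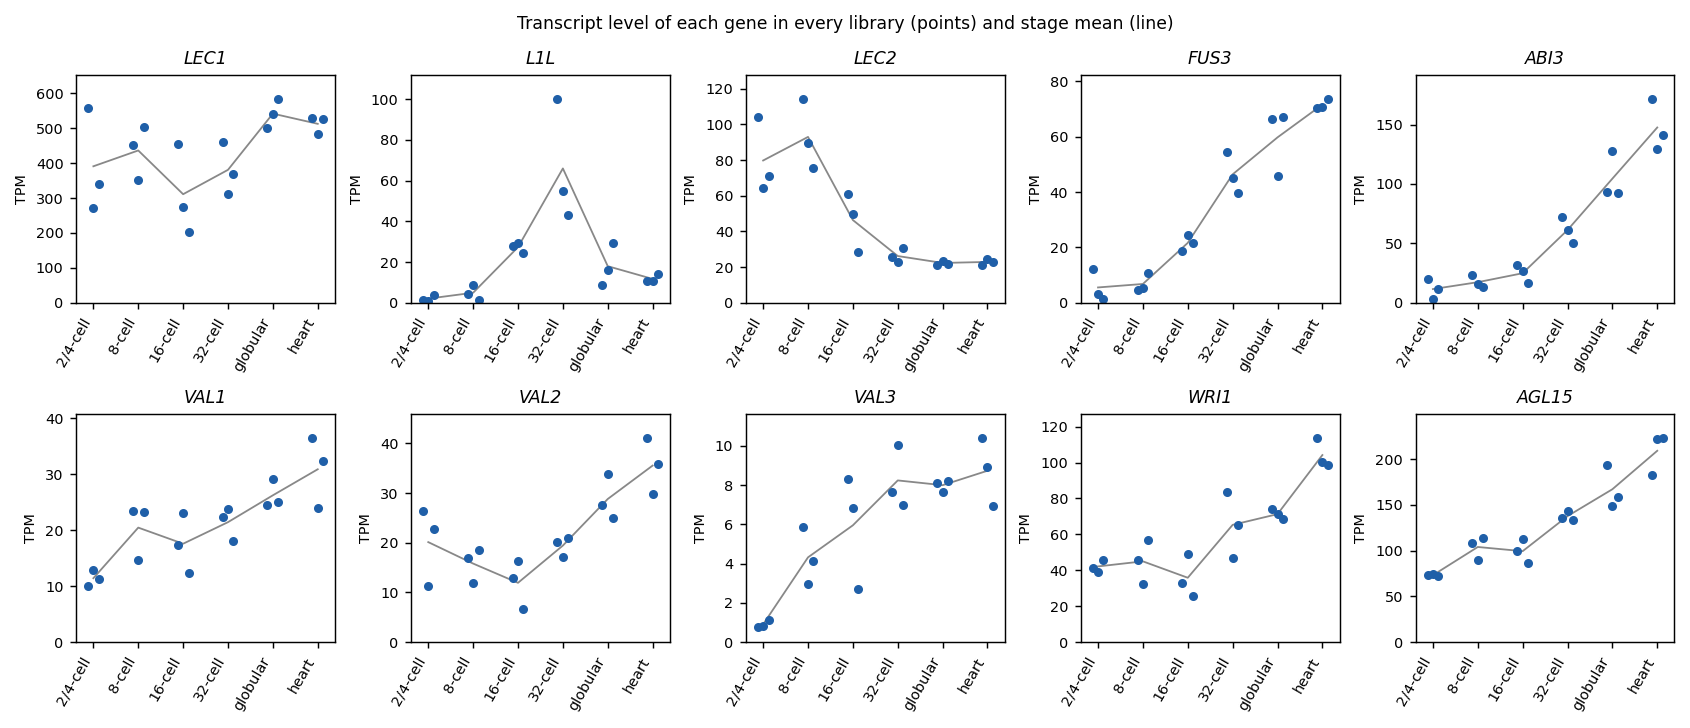
TPM of each of the 10 genes (vertical axes, linear, from 0) in the 6 stages in developmental order. Each point is 1 library, set side by side only for visibility, and the line joins stage means. LEC2 falls from 79.7 TPM in 2/4-cell to 22.9 TPM in heart, FUS3 and ABI3 rise to 71.6 and 148 TPM, and L1L peaks at 66.0 TPM in 32-cell.

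Because the B3 members bind the RY element, the 250 bases before each member's annotated gene start were searched in the RefSeq TAIR10.1 assembly for the RY core CATGCA, the NF-Y box CCAAT, the G-box CACGTG and the WRI1-binding AW box CNTNGNNNNNNNCG, on both strands. The RY core was in 3 of the 10 windows, those of FUS3, VAL1 and AGL15, and in 8.43% of 27443 such windows over the genome. CCAAT was in 1 of 10, that of LEC1, with 46.0% over the genome. The G-box was in none (6.49% over the genome), and the AW box in those of LEC1 and VAL2 (9.3% over the genome). A match is a string of letters and not a shown binding site. The windows of LEC1, FUS3, VAL1 and AGL15 are printed, chosen after the matches were seen, because they hold the letters that the products of this network are known to read. Each runs 5′ to 3′ on the minus strand, in the direction of the gene, in lower case, with RY cores and CCAAT boxes in capitals: chr1:7729650-7729899 for LEC1, chr3:9856213-9856462 for FUS3, chr2:12985278-12985527 for VAL1 and chr5:4450959-4451208 for AGL15.
LEC1: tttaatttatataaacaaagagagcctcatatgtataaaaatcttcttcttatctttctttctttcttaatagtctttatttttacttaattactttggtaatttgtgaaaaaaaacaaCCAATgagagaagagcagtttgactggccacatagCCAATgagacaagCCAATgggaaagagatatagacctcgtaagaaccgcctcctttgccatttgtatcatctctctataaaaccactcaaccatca
FUS3: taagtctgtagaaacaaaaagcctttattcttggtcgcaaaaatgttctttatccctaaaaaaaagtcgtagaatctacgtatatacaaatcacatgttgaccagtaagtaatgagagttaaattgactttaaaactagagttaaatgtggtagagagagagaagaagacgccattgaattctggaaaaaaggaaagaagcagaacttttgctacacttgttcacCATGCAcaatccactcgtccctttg
VAL1: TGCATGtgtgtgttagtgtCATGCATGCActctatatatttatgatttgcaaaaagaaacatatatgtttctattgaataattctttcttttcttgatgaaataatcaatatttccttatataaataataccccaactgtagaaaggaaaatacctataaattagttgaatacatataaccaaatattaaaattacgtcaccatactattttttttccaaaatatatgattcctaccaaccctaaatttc
AGL15: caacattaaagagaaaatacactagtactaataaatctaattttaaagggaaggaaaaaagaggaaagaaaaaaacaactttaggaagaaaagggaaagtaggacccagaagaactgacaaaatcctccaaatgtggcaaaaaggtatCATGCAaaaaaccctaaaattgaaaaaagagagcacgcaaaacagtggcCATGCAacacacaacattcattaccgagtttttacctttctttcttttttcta
The 3 CCAAT boxes of LEC1 began 131, 96 and 83 bases before the gene start. The single RY core of FUS3 lay 25 to 20 bases before its start and the cores of AGL15 lay 102 to 97 and 53 to 48 bases before. In VAL1 the RY cores sit at the far end of the window, and 3 of its 4 matches overlap in the run CATGCATGCA, read on both strands.

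LEC1 (AT1G21970, chr1:7727577-7729649, minus strand), the NF-YB subunit whose loss turns cotyledons into leaf-like organs, had the highest TPM of the 10 members in 18 of 18 libraries. Its level was 559, 273 and 341 TPM in the 2/4-cell libraries, 452, 352 and 504 TPM in the 8-cell libraries and 455, 274 and 203 TPM in the 16-cell libraries. It was 459, 313 and 370 TPM in the 32-cell, 500, 542 and 584 TPM in the globular and 529, 482 and 526 TPM in the heart libraries. The 2/4-cell and 8-cell libraries spread widely and overlapped the globular and heart libraries, while the 16-cell and 32-cell libraries lay below every globular and heart library. Gene positions, here and for the other members, are those of RefSeq TAIR10.1. LEC1 ranked between 231 and 645 among all 27564 genes by TPM in its library. The F test over stages gave an adjusted p of 0.0555, and the heart stage differed from the 2/4-cell stage by a log2 change of 0.46 (95% interval -0.08 to 0.99, adjusted p = 0.151, limma). That change was close to the median change of all tested genes in this comparison, 0.46 on the log2 scale. Against the 16-cell stage, its lowest, pairs taken up after the values were seen, LEC1 was higher in globular embryos by a log2 change of 0.88 (SE 0.26, adjusted p = 0.0205, 21.7% of tested genes called) and in heart embryos by 0.80 (SE 0.26, adjusted p = 0.0222, 34.1% called). The medians of all tested genes in these pairs were 0.38 and 0.47. Each was called in 22 of 28 alternatives. Both calls were lost with median-ratio scaling (adjusted p of 0.185 and 0.386) and without 16-cell replicate 2 (0.0547 and 0.0589) or replicate 3 (0.13 and 0.147). They were also lost without 3 doubted libraries together (0.126 and 0.144), namely 2/4-cell replicate 3, 16-cell replicate 3 and 32-cell replicate 2. The globular call was also lost without globular replicate 2 (0.0592) or 3 (0.0676), and the heart call without heart replicate 1 (0.0656) or 3 (0.0593). The F test of LEC1 passed the threshold in 6 of 27 alternatives (adjusted p from 0.00276 to 0.305), among them leaving out 2/4-cell replicate 1 (0.012), 2/4-cell replicate 2 (0.0469) or 16-cell replicate 1 (0.00554).

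L1L (AT5G47670, chr5:19314778-19316169, plus strand), also called NF-YB6, is the other LEC1-type NF-YB subunit and can replace LEC1 when driven by the LEC1 promoter. Its transcripts were at 1.25, 0.755 and 4.03 TPM in the 2/4-cell libraries and 4.46, 8.84 and 1.44 TPM in the 8-cell libraries. They were at 28, 29.5 and 24.4 TPM in the 16-cell and 100, 54.8 and 43.0 TPM in the 32-cell libraries. All 6 libraries of these middle stages lay above all 6 of the earlier ones. Levels were 8.65, 15.9 and 29.3 TPM in the globular and 10.6, 10.5 and 14 TPM in the heart libraries. L1L rose from 8-cell to 16-cell by a log2 change of 2.48 (SE 0.49, 5.56-fold on TPM + 1, adjusted p = 0.0124, limma). Leaving out 8-cell replicate 3 (0.0637) or 16-cell replicate 2 (0.0682) ended this call, and it held in the other 26 of 28 alternatives (adjusted p from 0.00638). The larger span from 8-cell to 32-cell, a pair chosen after the values were seen, gave a log2 change of 3.63 (SE 0.49, adjusted p = 4.89e-05), called in 28 of 28 alternatives. From 8-cell to 32-cell 4 members were called, L1L, LEC2, FUS3 and ABI3, when 13.3% of all tested genes were. From 32-cell to heart L1L fell by 2.32 on the log2 scale (adjusted p = 0.00468), again in 28 of 28 alternatives. This pair, where 9.01% of tested genes were called, was also taken up after the values were seen. It starts from the stage where L1L was highest. The single step from 32-cell to globular missed the threshold (log2 change -1.88, adjusted p = 0.0566) and passed it in 11 of 28 alternatives (adjusted p from 0.0048 to 0.276).

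In the RefSeq annotation L1L shares 116 bases on the same strand with AT5G47660 and 124 bases on the opposite strand with TRM10, and where genes overlap the reads of one may be counted for the other. AT5G47660 had stage means between 24.1 and 31.0 TPM and TRM10 between 84.4 and 138 TPM. The part of these overlaps in the L1L values was not tested.

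LEC2 (AT1G28300, chr1:9896867-9899876, minus strand), the B3 activator whose forced expression makes somatic embryos, was the member that fell. The 2/4-cell libraries held 104, 64.1 and 71.2 TPM and the 8-cell libraries 114, 89.4 and 75.2 TPM. The 16-cell libraries held 60.8, 49.6 and 28.6 TPM and the 32-cell libraries 25.4, 22.6 and 30.4 TPM. No 32-cell library reached the lowest 8-cell library. The globular libraries held 21.4, 23.6 and 21.9 TPM and the heart libraries 21.4, 24.4 and 22.8 TPM, so the level was nearly flat from the 32-cell stage on. LEC2 was lower in heart than in 2/4-cell embryos by a log2 change of -1.73 (SE 0.25, 3.31-fold on TPM + 1, adjusted p = 1.89e-05, limma), in 28 of 28 alternatives. From 8-cell to 32-cell, a pair chosen after the values were seen, the log2 change was -1.78 (SE 0.25, adjusted p = 6.71e-05), also in 28 of 28 alternatives. Which step carried the fall was less firm. The step from 8-cell to 16-cell (log2 change -1.03, adjusted p = 0.0411) was called in 10 of 28 alternatives (adjusted p from 0.0147 to 0.181). Leaving out 1 library ended that call (adjusted p from 0.0505 to 0.181) for 14 of the 18, the exceptions being the 3 libraries of the 2/4-cell stage and 16-cell replicate 1. The step from 16-cell to 32-cell gave a log2 change of -0.75 (adjusted p = 0.0882) and was called in 5 of 28 alternatives (adjusted p from 0.00666 to 0.262), among them leaving out 16-cell replicate 3 (0.0135).

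FUS3 (AT3G26790, chr3:9853828-9856212, minus strand), a B3 activator of storage genes that also restrains gibberellin and keeps embryonic leaves from forming trichomes, rose. Its level was 12.3, 3.10 and 1.18 TPM in the 2/4-cell, 4.53, 5.18 and 10.6 TPM in the 8-cell and 18.8, 24.6 and 21.5 TPM in the 16-cell libraries. It was 54.5, 45.2 and 39.5 TPM in the 32-cell, 66.4, 45.7 and 67.2 TPM in the globular and 70.6, 70.6 and 73.7 TPM in the heart libraries. The 16-cell libraries lay above all earlier ones and below all later ones, whereas 32-cell and globular libraries overlapped. From 2/4-cell to heart the log2 change was 3.88 (SE 0.44, 14.8-fold on TPM + 1, adjusted p = 1.08e-06, limma). From 8-cell to 32-cell, chosen after the values were seen, it was 2.68 (SE 0.44, adjusted p = 0.00031). No single step between neighbouring stages was called for FUS3. The step to 16-cell had an adjusted p of 0.0711 and was called in 4 of 28 alternatives (adjusted p from 0.00458 to 0.251). The step to 32-cell had an adjusted p of 0.176 and was called in 3 of 28 (from 0.0262 to 0.403). The step from 2/4-cell to 8-cell (adjusted p = 0.486) was called only without 2/4-cell replicate 1 (0.0122).

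ABI3 (AT3G24650, chr3:8997370-9001185, plus strand), the B3 activator that links abscisic acid to storage protein synthesis and desiccation tolerance, rose to the highest level of the 3 B3 activators. It stood at 19.8, 3.38 and 11.3 TPM in the 2/4-cell, 23.1, 15.8 and 13 TPM in the 8-cell and 31.5, 26.3 and 16.7 TPM in the 16-cell libraries, which overlapped from stage to stage. It then stood at 72.4, 61.2 and 49.9 TPM in the 32-cell, 93.2, 128 and 92.2 TPM in the globular and 171, 130 and 141 TPM in the heart libraries. From the 32-cell stage on, the libraries of each stage lay above all those of the stage before. Yet limma called neither the step from 32-cell to globular (log2 change 0.76, adjusted p = 0.393) nor that from globular to heart (0.50, unadjusted p = 0.216). Heart against 32-cell, also taken up after the values were seen, gave 1.26 (adjusted p = 0.0499, 9.01% of tested genes called). That call held in 10 of 28 alternatives (adjusted p from 0.000222 to 0.191). The log2 change from 2/4-cell to heart was 3.83 (SE 0.39, 14.2-fold on TPM + 1, adjusted p = 3.39e-07, limma), and from 8-cell to 32-cell, chosen after the values were seen, 1.79 (SE 0.39, adjusted p = 0.0042). For both FUS3 and ABI3 these 2 comparisons were called in 28 of 28 alternatives. The step from 16-cell to 32-cell, 1.30 on the log2 scale, had an adjusted p of 0.0562 and was called in 6 of 28 alternatives (adjusted p from 0.0059 to 0.339).

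Taken as ratios within a library, which are free of the scaling of that library, the exchange showed in every one. LEC2 was above FUS3 and above ABI3 in 9 of 9 libraries of the 2/4-cell, 8-cell and 16-cell stages. It was below both in 9 of 9 libraries of the 32-cell, globular and heart stages. This division of the stages was not planned before the values were seen, and other gene pairs were not counted in the same way. The ratio of LEC2 to ABI3 was 10.2 ± 7.63 in 2/4-cell, 5.47 ± 0.458 in 8-cell, 1.84 ± 0.113 in 16-cell, 0.444 ± 0.144 in 32-cell, 0.217 ± 0.0285 in globular and 0.158 ± 0.0318 in heart embryos (SD, n = 3). The ratio of LEC2 to FUS3 went from 29.8 ± 27.1 in 2/4-cell to 2.19 ± 0.964 in 16-cell and 0.320 ± 0.0225 in heart embryos. Both ratios thus crossed 1 between the 16-cell and the 32-cell stage. ABI3 and FUS3 kept a ratio of ABI3 to FUS3 between 1.17 and 2.06 in stage means from the 16-cell stage on.

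LEC1 gave between 63.0% and 83.4% of the summed TPM of LEC1, L1L, LEC2, FUS3 and ABI3 in each library, and the make-up of the rest turned over. The LEC2 share was 16.7% ± 1.85 in 2/4-cell and 3.0% ± 0.371 in heart embryos, while the ABI3 share went from 2.15% ± 1.02 to 19.2% ± 1.87 and the FUS3 share from 0.981% ± 0.748 to 9.37% ± 0.535. L1L held 11.1% ± 2.99 in 32-cell embryos and under 4% in each globular or heart library. LEC1 exceeded L1L 298 ± 190-fold in 2/4-cell, 6.30 ± 2.07-fold in 32-cell and 44.5 ± 6.25-fold in heart embryos. The 5 genes summed to 490 ± 184 TPM in 2/4-cell and 766 ± 44 TPM in heart embryos.

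**Figure D2:**
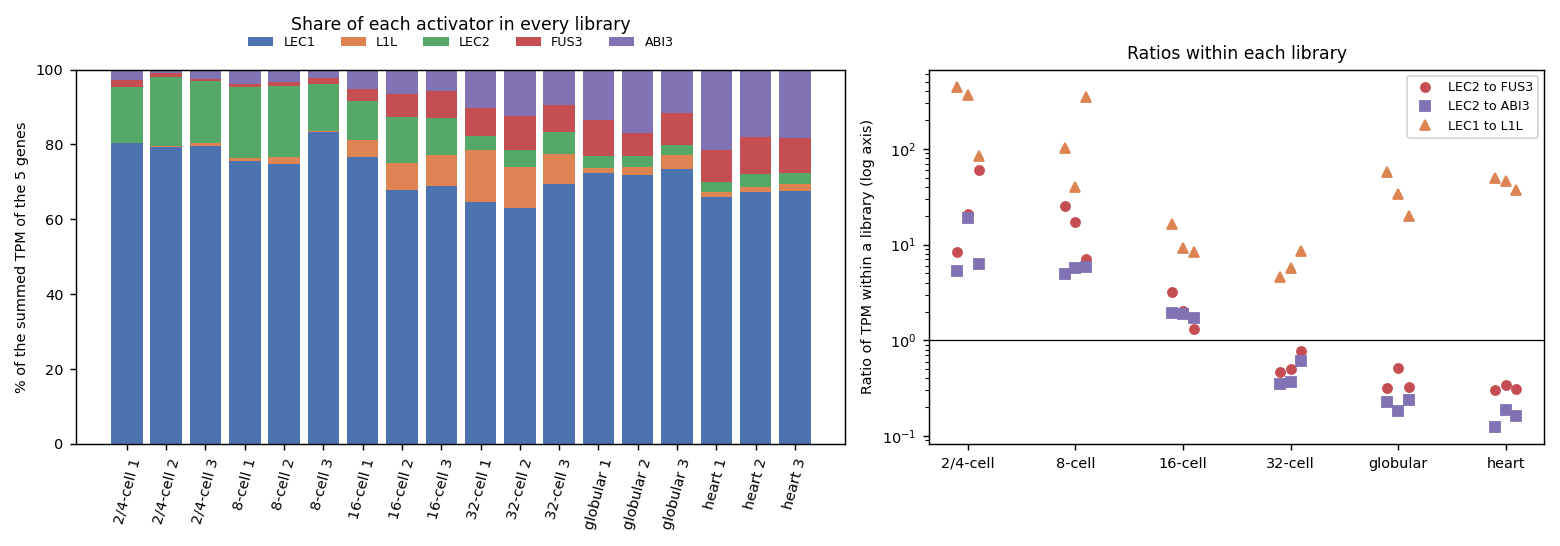
Left, the share of the summed TPM of LEC1, L1L, LEC2, FUS3 and ABI3 that each gene held, as a stacked bar for each library, named by stage and replicate. Right, ratios of TPM within each library on a log axis, 1 point per library, with a line at a ratio of 1. LEC2 to ABI3 goes from 10.2 in 2/4-cell to 0.158 in heart and LEC1 to L1L is lowest in 32-cell, at 6.30.

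The VAL repressors were under 50 TPM in every library for all 3, far below LEC1 but not below every other activator. In 2/4-cell embryos VAL1 and VAL2 had means of 11.4 and 20.1 TPM, against 5.53 TPM for FUS3 and 2.01 TPM for L1L. In heart embryos their means were 30.9 and 35.5 TPM, against 22.9 TPM for LEC2 and 11.7 TPM for L1L. VAL1 (AT2G30470, chr2:12980428-12985277, minus strand), which recruits Polycomb proteins at RY elements, was at 10.1, 12.9 and 11.3 TPM in the 2/4-cell and 36.4, 23.9 and 32.3 TPM in the heart libraries. These groups did not overlap, and the log2 change was 1.35 (SE 0.26, 2.54-fold on TPM + 1, adjusted p = 0.000363, limma). In between, VAL1 had stage means of 20.4 TPM in 8-cell, 17.6 in 16-cell, 21.4 in 32-cell and 26.2 TPM in globular embryos. VAL2 (AT4G32010, chr4:15479379-15485354, plus strand), the partner that overlaps with VAL1 in function, was at 26.3, 11.2 and 22.8 TPM in the 2/4-cell and 41.0, 29.8 and 35.8 TPM in the heart libraries, with its lowest mean, 11.9 ± 4.96 TPM, in 16-cell embryos. Its log2 change from 2/4-cell to heart was 0.86 (SE 0.32, adjusted p = 0.0345), called in 21 of 28 alternatives (adjusted p from 0.0147 to 0.24). That call was lost under median-ratio scaling (0.24), and without 2/4-cell replicate 2 (0.197), heart replicate 1 (0.116) or heart replicate 3 (0.0792).

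VAL3 (AT4G21550, chr4:11462969-11468679, plus strand), the remaining B3 repressor of the family, was near 1 TPM at the start. It was at 0.786, 0.798 and 1.13 TPM in the 2/4-cell, 5.87, 2.95 and 4.13 TPM in the 8-cell and 8.32, 6.85 and 2.68 TPM in the 16-cell libraries. It was at 7.67, 10.05 and 6.99 TPM in the 32-cell, 8.12, 7.65 and 8.21 TPM in the globular and 10.4, 8.90 and 6.91 TPM in the heart libraries. The 2/4-cell libraries lay below all others. VAL3 rose from 2/4-cell to 8-cell by a log2 change of 1.45 (SE 0.36, 2.73-fold on TPM + 1, adjusted p = 0.0136), called in 24 of 28 alternatives (adjusted p from 0.00432 to 0.227). Without 8-cell replicate 1 that call was lost (0.074). From 2/4-cell to heart the log2 change was 2.34 (SE 0.36, 5.07-fold, adjusted p = 3.26e-05), in 28 of 28 alternatives. In RefSeq, VAL3 shares 14 bases on the opposite strand with VPS28-1, whose mean went from 24.7 TPM in 2/4-cell to 132 TPM in heart embryos, and 309 bases with a non-coding RNA on the opposite strand. VAL2 shares 104 bases with another. The labels do not say whether strand was kept, and the part of these overlaps in the values was not tested. The 3 repressors summed to 32.4 ± 6.60 TPM in 2/4-cell and 75.1 ± 12.6 TPM in heart embryos.

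WRI1 (AT3G54320, chr3:20114488-20118745, plus strand), the activator of fatty acid synthesis, was at 41.5, 39.2 and 45.8 TPM in the 2/4-cell, 45.8, 32.2 and 56.9 TPM in the 8-cell and 32.8, 48.8 and 25.9 TPM in the 16-cell libraries. It was at 83.6, 47.0 and 65.3 TPM in the 32-cell, 74.3, 71.2 and 68.3 TPM in the globular and 114, 100 and 98.7 TPM in the heart libraries. The early stages overlapped, and the heart libraries lay above all others. WRI1 rose from 2/4-cell to heart by a log2 change of 1.29 (SE 0.24, 2.44-fold on TPM + 1, adjusted p = 0.00027, limma), in 28 of 28 alternatives. The step from 16-cell to 32-cell was called (log2 change 0.86, adjusted p = 0.0393) although the libraries overlapped, and it was called in only 14 of 28 alternatives (adjusted p from 0.0128 to 0.213). Leaving out 1 library ended this call (adjusted p from 0.0515 to 0.213) for 16-cell replicates 1 and 3, 32-cell replicates 1 and 3, each globular library and heart replicates 2 and 3.

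AGL15 (AT5G13790, chr5:4448862-4450958, minus strand), the MADS-domain factor, rose with little spread between libraries. It was at 73.4, 74.2 and 71.8 TPM in the 2/4-cell, 108, 90.1 and 114 TPM in the 8-cell and 99.7, 113 and 85.9 TPM in the 16-cell libraries. It was at 136, 143 and 134 TPM in the 32-cell, 194, 148 and 159 TPM in the globular and 183, 222 and 223 TPM in the heart libraries. Libraries of the 8-cell and 16-cell stages overlapped, and so did those of the globular and heart stages. From 2/4-cell to heart the log2 change was 1.5 (SE 0.15, 2.83-fold on TPM + 1, adjusted p = 2.8e-07, limma), in 28 of 28 alternatives. The step from 2/4-cell to 8-cell was also called, with a log2 change of 0.50 (adjusted p = 0.0465), but in only 9 of 28 alternatives (adjusted p from 0.0291 to 0.28). Leaving out 1 library ended this call (adjusted p from 0.0537 to 0.164) except for 8-cell replicate 2, the 3 libraries of the 16-cell stage, globular replicate 1 and heart replicate 1.

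Between the ends of the series, 8 members were higher and 1, LEC2, was lower in heart than in 2/4-cell embryos, when 46.9% of tested genes were called, 34.5% higher and 12.3% lower. The members' median log2 change was 1.42, beside 0.46 for all tested genes. With median-ratio scaling in place of TPM as deposited, the median of all tested genes was 0.03. Under that scaling the 8 members other than LEC1 and VAL2 were still called in the same direction, when 41% of tested genes were called. LEC1 then had a log2 change of -0.03. Between neighbouring stages calls were few. From 2/4-cell to 8-cell, 2 members rose, AGL15 and VAL3 (8.77% of tested genes called). From 8-cell to 16-cell L1L rose and LEC2 fell (1.56% called), and from 16-cell to 32-cell WRI1 rose (6.06% called). From 32-cell to globular limma called 0 members (1.94% of genes called), 1, L1L, had an unadjusted p under 0.05, and 3 were called with library weights, where 18.9% of genes were. From globular to heart limma called 0 members (0.578% of genes called), 2, WRI1 and AGL15, had an unadjusted p under 0.05, and 2 were called with library weights, where 10.9% of genes were.

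**Figure D3:**
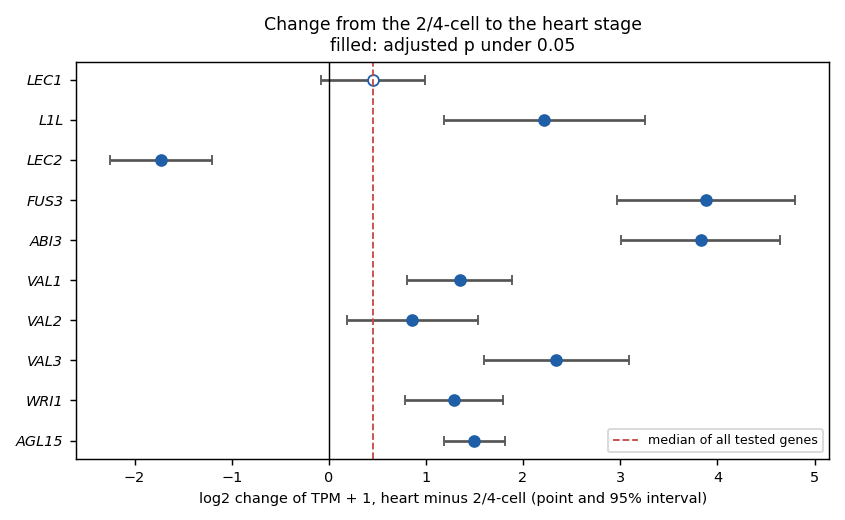
Log2 change of TPM + 1, heart minus 2/4-cell (horizontal axis), for each of the 10 genes with its 95% interval from limma. Filled points passed an adjusted p of 0.05 over all tested genes, and the dashed line is the median of all tested genes, 0.46. FUS3 and ABI3 stand highest at 3.88 and 3.83, LEC2 alone is below 0 at -1.73, and LEC1 lies at 0.46.

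The 7 members FUS3, ABI3, VAL1, VAL2, VAL3, WRI1 and AGL15 had their highest stage mean in heart embryos, though limma called 0 members from globular to heart. The like share of all tested genes was not worked out. Their median was also higher in heart than in each other stage, by 0.08 (globular) to 0.47 (16-cell) on the log2 scale. When the 6 stages of a member were put in order of level, few neighbours in that order differed beyond their spread. The called ones were L1L heart over 8-cell (adjusted p = 0.0449), LEC2 2/4-cell over 16-cell (0.032) and VAL3 8-cell over 2/4-cell (0.0136). The coefficient of variation was lower in heart than in 2/4-cell embryos for 8 of 10 members. It was higher for VAL1 (12.4% in 2/4-cell, 20.6% in heart) and AGL15 (1.64% and 11.0%). The like share of all genes was not worked out. Library weights, fitted over all tested genes and larger where spread is smaller, were 0.291 to 0.329 in the 2/4-cell and 0.938 to 4.87 in the heart libraries.

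Markers of the embryo and of the seed tissues around it were read beside these results. The embryo markers WOX2, WOX8, WOX9, ATML1 and PDF1 were above 0 in every library and summed to 578 to 3804 TPM. From 2/4-cell to heart WOX2, WOX8 and WOX9 fell and PDF1 rose, with a median log2 change of -1.06 over the 5. The summed level of 16 seed coat markers was 420, 941 and 1552 TPM in the 2/4-cell libraries, 24.1 to 80.1 TPM in the 8-cell and 16-cell libraries, 65.7, 316 and 65.4 TPM in the 32-cell libraries and 38.1 to 64.3 TPM in the globular and heart libraries. The 2/4-cell libraries thus stand apart, with 32-cell replicate 2 next. BAN, an enzyme of proanthocyanidin synthesis specific to the seed coat, averaged 204 TPM in 2/4-cell and 1.42 TPM in heart embryos. Of the 16 markers, 11 were lower in heart than in 2/4-cell embryos and none was higher (12 tested). The 12 endosperm markers summed to 53.4, 43.7 and 134 TPM in the 2/4-cell libraries and 17.7 to 58.6 TPM in all others. Only 2 of the 12 were tested. At 1 TPM or more were 8 of them in 2/4-cell replicate 3, 3 in 16-cell replicate 1 and 2 in each other library. In 2/4-cell replicate 3 the imprinted or early endosperm MADS genes PHE1, PHE2, AGL62 and AGL36 were at 19.3, 31.3, 9.22 and 12 TPM, and in the other 2/4-cell libraries at 0.11 TPM or less.

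**Figure D4:**
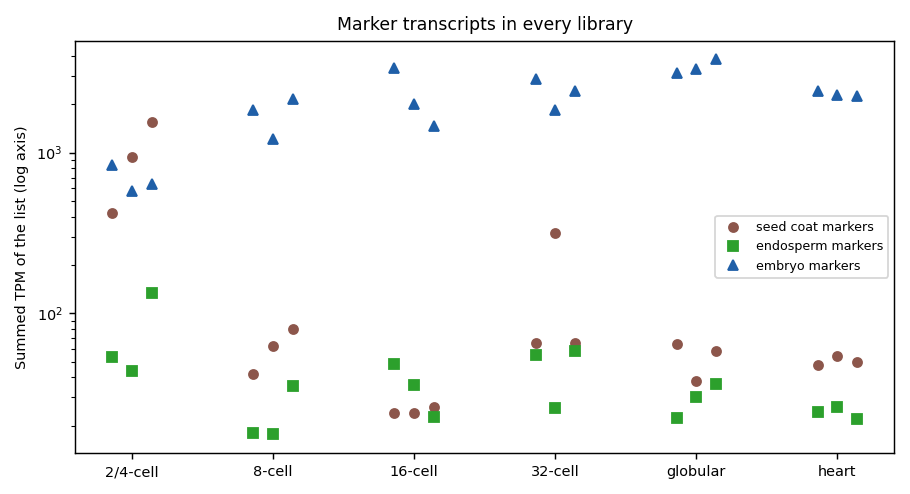
Summed TPM (log axis) of 16 seed coat, 12 endosperm and 5 embryo marker genes in each library, by stage. Seed coat markers sum to 420 to 1552 TPM in the 2/4-cell libraries and to 316 TPM in 32-cell replicate 2, and to 80.1 TPM or less elsewhere.

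The seed coat markers move with the comparison of heart and 2/4-cell embryos, and their part in it was not tested. Set against the 8-cell stage instead, where those markers are low, a pair taken up after the values were seen, LEC2 was lower in heart by a log2 change of -1.96 (adjusted p = 6.63e-06). FUS3 was higher by 3.30 (adjusted p = 1.03e-05), ABI3 by 3.05 (7.14e-06) and L1L by 1.31 (0.0449). WRI1 was higher by 1.23 (0.000614), VAL2 by 1.13 (0.0103) and AGL15 by 1.0 (4.35e-05). In this comparison 7 of 10 members were called, when 35.9% of all tested genes were, and VAL1 (log2 change 0.58, adjusted p = 0.088), VAL3 (0.89, 0.0571) and LEC1 (0.25, 0.469) were not. With the 2/4-cell stage left out of the fit altogether, 8 members varied over the remaining stages (46.5% of tested genes did), and with 2/4-cell replicate 3, 16-cell replicate 3 and 32-cell replicate 2 left out together 9 varied over the 6 (49.6% of tested genes did). Both of these fits were added after the values were seen. The second kept 2/4-cell replicates 1 and 2, in which the seed coat markers summed to 420 and 941 TPM. It therefore cannot show what part those markers have in the values of the 2/4-cell stage. Of the 3 libraries left out together, 16-cell replicate 3 did not stand apart in the seed coat or endosperm markers (26.2 and 22.5 TPM). Its library weight, 0.266, was the lowest of all.

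The partners and targets of the network were read from lists of known genes, each in the heart against 2/4-cell comparison, where 46.9% of all tested genes were called. LEC1 and L1L act in a trimer with NF-YC and NF-YA subunits. Of 27 further NF-Y genes 20 were tested, 10 were higher and 2 lower, with a median log2 change of 0.85. The A-type subunits NF-YA6 and NF-YA2 rose most. NF-YA6 went from 0.491 ± 0.129 to 59.9 ± 9.59 TPM (40.6-fold on TPM + 1, adjusted p = 2.32e-10), and NF-YA2 from 1.01 ± 1.48 to 14 ± 1.43 TPM (adjusted p = 2.87e-05). The C-type subunits NF-YC6 and NF-YC7 fell, from 8.30 ± 5.40 to 0.165 ± 0.182 TPM (adjusted p = 0.00023) and from 13.5 ± 11.8 to 0.484 ± 0.217 TPM (adjusted p = 0.00497). The abundant subunits NF-YB10 and NF-YC9 did not pass, at 65.1 and 71.0 TPM and at 90.6 and 80.4 TPM in 2/4-cell and heart embryos.

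Among 6 bZIP factors that act beside ABI3 or FUS3 on seed promoters, 5 were tested, 2 rose and 1 fell. EEL rose from 0.138 ± 0.121 to 13.4 ± 3.76 TPM (12.4-fold on TPM + 1, adjusted p = 1.58e-06) and bZIP10 from 13.2 ± 4.91 to 27.8 ± 5.82 TPM (adjusted p = 0.0141). bZIP53 fell from 35.8 ± 10.9 to 20.9 ± 3.96 TPM (adjusted p = 0.0478). ABI5, the partner of ABI3 in abscisic acid responses, was at 1.34 and 0.914 TPM and bZIP25 at 43.4 and 37.5 TPM, neither past the threshold. Of 4 relatives of WRI1 and AGL15 none rose. WRI4 fell from 3.0 ± 2.94 to 0.403 ± 0.322 TPM (adjusted p = 0.0261) and AGL18 from 6.48 ± 0.881 to 2.12 ± 0.0774 TPM (adjusted p = 0.00713), while WRI2, at 25.5 and 24.3 TPM, and WRI3, at 2.48 and 2.07 TPM, did not pass.

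The genes of plastid glycolysis and fatty acid synthesis that WRI1 is known to activate rose nearly as a block. All 20 were tested, 19 were higher and 0 lower, with a median log2 change of 1.48. The pyruvate dehydrogenase subunit PDH-E1beta went from 40.1 ± 11.4 to 269 ± 59.7 TPM (adjusted p = 1.58e-07), the condensing enzyme KASII from 40.2 ± 8.96 to 191 ± 43.7 TPM (2e-06), and the acetyl-CoA carboxylase subunits BCCP2 from 15.8 ± 6.36 to 71.8 ± 8.03 TPM (1.51e-05) and CAC2 from 73.8 ± 24.8 to 312 ± 73.4 TPM (7.46e-06). Sucrose synthase SUS2 did not pass, at 0.934 and 2.76 TPM (adjusted p = 0.0502). Summed over the list the level was 1460 ± 259, 1522 ± 258, 1531 ± 321, 2149 ± 284, 3036 ± 296 and 3769 ± 529 TPM from 2/4-cell to heart embryos. WRI1 itself had means of 42.1, 45.0 and 35.8 TPM in the first 3 stages and 65.3, 71.3 and 104 TPM in the last 3.

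A list of 21 genes that LAFL factors switch on in maturing seeds held genes for storage proteins and oil body proteins. It also held others, such as FAD3, FAE1, EM1, EM6 and PER1. Of the 21 genes, 11 never reached 1 TPM in any library. Among these were the cruciferins CRU2 and CRU3 and the albumins SESA1, SESA3 and SESA4, and SESA5 and FAE1 were listed at 0 in every library. Of the 21 genes, 6 were tested. Of those 6, 4 rose and 1 fell. The oleosin OLEO3 rose from 1.20 ± 1.40 to 21.5 ± 6.88 TPM (adjusted p = 8.78e-06) and the desaturase FAD3 from 2.39 ± 2.94 to 29.0 ± 3.02 TPM (5.14e-06). OLEO2 was listed at 0 in each 2/4-cell library and at 3.42 ± 0.914 TPM in heart embryos (1.91e-05). It entered the test only through libraries of other stages, so it could not have been seen to fall here. OLEO1 fell from 9.28 ± 5.86 to 0.218 ± 0.104 TPM (8.9e-05), in the stage where seed coat markers were high. OLEO5, at 3.10 and 4.38 TPM, did not pass. The whole list summed to 16.4 ± 0.564 TPM in 2/4-cell and 63.5 ± 10.7 TPM in heart embryos, against 766 TPM for its 5 activators in heart embryos. The desaturase FAD3, neither a storage nor an oil body protein, gave 29.0 TPM of the heart sum.

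Of 16 chromatin proteins that work with the VAL factors, 15 or 16 were at 1 TPM or more in each library. All 16 were tested, and 8 were higher and 0 lower in heart than in 2/4-cell embryos. Of all tested genes 46.9% were called, 34.5% higher and 12.3% lower, so the share called was near that of all genes. The list had a median log2 change of 0.77, beside 0.46 for all tested genes. BMI1A, a Polycomb ring-finger protein, went from 11.4 ± 1.37 to 38.3 ± 2.75 TPM (adjusted p = 1.79e-05), and SWN, a histone H3 lysine methyltransferase, from 14 ± 7.43 to 33.0 ± 4.74 TPM (0.00611). The deacetylase HDA19 went from 141 ± 33.5 to 309 ± 42.1 TPM (0.00318) and the trihelix repressor ASIL1 from 12 ± 1.67 to 28.2 ± 3.77 TPM (0.00154). SAP18, at 334 and 354 TPM, and MSI1, at 139 and 152 TPM, did not pass. Of 8 hormone genes known as targets, 4 were tested, 1 rose and 2 fell. The auxin genes IAA30 and YUC4, both activated by LEC2, fell from 79.6 ± 21.3 to 20.9 ± 4.44 TPM (0.000742) and from 99.4 ± 1.84 to 55.8 ± 6.56 TPM (0.00407). IAA30 was highest in 8-cell embryos at 190 ± 38.4 TPM. The gibberellin oxidase GA3OX2 rose but stayed below 1.5 TPM in every library (adjusted p = 0.0276), and TAA1, at 31.1 and 21.9 TPM, did not pass.

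**Figure D5:**
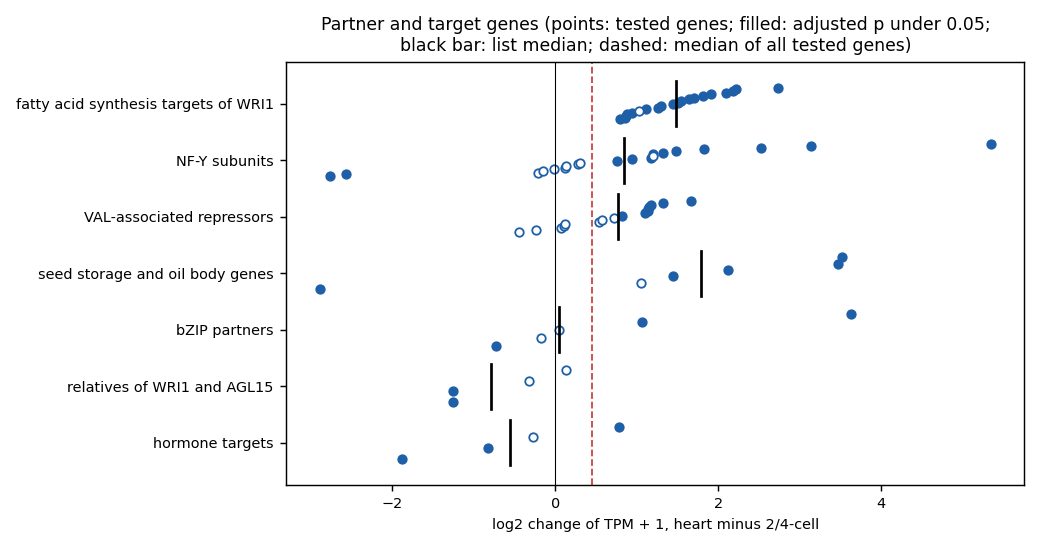
Log2 change of TPM + 1, heart minus 2/4-cell (horizontal axis), of each tested gene in 7 lists of partners and targets. Filled points passed an adjusted p of 0.05, black bars are list medians and the dashed line is the median of all tested genes, 0.46. The fatty acid synthesis genes, with a median of 1.48, all lie above 0.

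Pairs of members were set side by side by the Pearson r of log2(TPM + 1) over the 18 libraries, as a description only, since all libraries share the order of stages and the same scaling. ABI3 and AGL15 had the highest r, 0.90, followed by FUS3 and ABI3 with 0.89. LEC2 had a negative r with each other member, down to -0.87 with FUS3. LEC1 and L1L, the NF-YB pair, had an r of -0.11. VAL2 followed WRI1 (0.87) more than it followed VAL3 (0.39), and VAL1 followed VAL3 with 0.85.

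Among 6669 named genes with at least 5 TPM in some stage, those most like each member over the 18 libraries were found the same way. Most like LEC2 were ARR15, a type-A cytokinin response regulator (r = 0.96), OBP1, a DOF-type factor (0.96), and FKD1 (0.96). Most like FUS3 were the acyl carrier protein ACP5 (0.98), the lipid phosphatase LPP2 (0.97) and HB32 (0.96). Most like ABI3 were the chlorophyll synthase G4 (0.98), the chromatin remodeller SYD (0.97) and ORP1D (0.97). L1L had less close companions, SCPL19 (0.91), the auxin synthesis gene YUC3 (0.89) and the caleosin CLO4 (0.87). LEC1 came with EXT-like, EMB3108 and NPSN13 (0.89 to 0.90), VAL1 with DUF2, EMB2421 and MIRO2 (0.92 to 0.94), VAL2 with SEC, TSO1 and ATU2AF65A (0.95 to 0.96) and VAL3 with ZTL, INT3 and MLO11 (0.95 to 0.96). WRI1 came with the plastid genes RPS9, PSB29 and CLPP6 (0.92 to 0.93), and AGL15 with CIB5, NTRC and the NF-Y subunit NF-YA6 (0.96 each).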

How the data were processed

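The table the authors deposited holds gene-level TPM values for 18 libraries, and the submitters' processing notes name Trim Galore 0.6.6, kallisto 0.44.0 and the build TAIR10. Each column sums to 1000000, read depth is unknown, and TPM are not counts, so no count test was used and intervals reflect spread between libraries only. The step from transcripts to genes is not given in the sources used here. Stages were taken from the labels. The 18338 genes that reached 1 TPM in 3 or more libraries were fitted as log2(TPM + 1) with limma 3.58.1 in R 4.3.3, with 1 mean per stage over all 18 libraries, a mean-variance trend and Benjamini-Hochberg adjustment over all tested genes within each comparison, two-sided. The pseudocount understates fold changes of low genes. The fit was tested on simulated data. Promoter windows and names came from RefSeq TAIR10.1 (27445 of 27564 identifiers matched). All 10 members are named, and from each list the called genes that changed most (4 at most) and the most abundant uncalled ones (2 at most). The members, lists and comparisons were chosen with earlier results of these data known. Between 15381 and 16731 genes reached 1 TPM per library.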

Additional observations from a re-analysis of the deposited data

How the results depend on the processing

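The count of members that varied over the 6 stages was 9 to 10 when 1 library was left out, 8 without the 2/4-cell stage (46.5% of tested genes called) and 9 with 3 doubted libraries left out together (49.6%). It was 10 with library weights (61%) and with quantile normalization (41.3%). For heart against 2/4-cell the count ranged from 8 to 10 on leaving out 1 library and was 8 with library weights (39.2%), median-ratio scaling (41%), quantile normalization (38.7%) and only the stages compared (38.8%). Counts for neighbouring stages rest on a few members near the threshold. On leaving out 1 library they ranged from 0 to 3 for 8-cell against 2/4-cell, 0 to 3 for 16-cell against 8-cell, 0 to 3 for 32-cell against 16-cell, 0 to 1 for globular against 32-cell and were 0 for heart against globular. For 8-cell against 2/4-cell the count was 0 with a pseudocount of 5 (7.77% of tested genes called), with library weights (3.23%) and with only the stages compared (2.4%), 1 with a filter of 5 TPM (7.86%) and with the 3 doubted libraries left out (10.4%), and 3 with quantile normalization (10.3%). For 16-cell against 8-cell it was 1 with no filter (0.662%), with only the stages compared (0.865%) and with the 3 doubted libraries left out (1.74%), and 3 with a pseudocount of 5 (1.2%). For 32-cell against 16-cell it was 2 with a pseudocount of 5 (6.13%), 0 with no filter (4.14%), 4 with library weights (8.5%) and 3 with only the stages compared (5.12%). For globular against 32-cell it was 1 with a pseudocount of 5 (2.55%), median-ratio scaling (1.92%) or quantile normalization (2.62%) and 3 with library weights (18.9%) or only the stages compared (12.9%), and for heart against globular it was 2 with library weights (10.9%). Same-numbered libraries were not paired by the labels, and their deviations from stage means correlated with r from -0.139 to 0.210, not above 0.1 in every pair. With the replicate number as a block, 10 members varied over the stages (50% of tested genes), and the count was 1 for 8-cell against 2/4-cell (8.67%) and 2 for 32-cell against 16-cell (6.12%). Of 2230 values of single members under alternatives, 2061 kept their direction and their side of the threshold, 94 lost a call, 51 gained one and 24 changed sign, all without a call. The sign changes were, on the log2 scale, WRI1 globular against 32-cell with median-ratio scaling (-0.013), quantile normalization (-0.012) and without 32-cell replicate 2, alone or with the other doubted libraries (-0.052), LEC2 heart against globular with median-ratio scaling (-0.042), quantile normalization (-0.052) and without heart replicate 2 (-0.010), and LEC1 heart against 2/4-cell with median-ratio scaling (-0.034). VAL3 heart against globular changed sign with quantile normalization (-0.037), library weights (-0.049) and without heart replicate 1 (-0.023). VAL3 globular against 32-cell did with library weights (0.033), without 32-cell replicate 2, alone or with the other doubted libraries (0.11), and without globular replicate 2 (0.0031). VAL3 32-cell against 16-cell was -0.039 without the 3 doubted libraries. AGL15 16-cell against 8-cell was 0.0013 with quantile normalization, 0.0030 without 8-cell replicate 3 and 0.034 without 16-cell replicate 3, alone or with the other doubted libraries. LEC1 8-cell against 2/4-cell was -0.017 without 2/4-cell replicate 2, FUS3 was -0.0054 in that comparison without 2/4-cell replicate 3, alone or with the other doubted libraries, and WRI1 was -0.13 without 8-cell replicate 3. On leaving out 1 library, LEC1 ranged from -0.017 to 0.50, FUS3 from -0.0054 to 1.30 and WRI1 from -0.13 to 0.27 in 8-cell against 2/4-cell, and AGL15 from -0.17 to 0.034 in 16-cell against 8-cell. The like ranges were -0.12 to 0.11 for VAL3 and -0.052 to 0.36 for WRI1 in globular against 32-cell, and -0.010 to 0.080 for LEC2 and -0.023 to 0.24 for VAL3 in heart against globular. The cause of these changes was not tested. Read depth is unknown, so the counting error of low members such as VAL3 and of L1L in the first stages cannot be given.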
